A study of Mus musculus with 20 samples.

Results

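The 6 genes Ppara, Cpt1a, Acadm, Acadl, Hadha and Pdk4 were followed in jejunal epithelium of female mice. They were chosen by name, as the rows of the deposited tables that carry these symbols, and all 6 were found among the 17294 gene names of the acute table and the 16195 of the prolonged table. Gene expression was measured by poly(A) RNA-seq in 20 libraries, and the values are CPM, reads per gene scaled to the same total in every library. The groups were 7 libraries of Kdm6a/Kdm6b knockout (DKO) mice and 5 of control mice labelled Control/WT, taken 7 days after ablation (acute), and 5 DKO and 3 control libraries taken 5 months after ablation (prolonged). Kdm6a and Kdm6b encode demethylases that remove a repressive methyl mark from histone H3. The labels name neither the driver of the recombinase, nor the inducing agent, nor the age or strain of the mice, and the series' design describes the cells as crypt epithelium. Whether the control mice carried the recombinase is not known here. An effect of the recombinase itself therefore cannot be told apart from that of the ablation.

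PPAR-alpha, the product of Ppara, is a nuclear receptor that binds fatty acids and, as a heterodimer with a retinoid X receptor, activates genes of fatty acid oxidation and ketone body synthesis. Cpt1a encodes the enzyme of the outer mitochondrial membrane that joins long-chain fatty acids to carnitine and so controls their entry into mitochondria. Acadl and Acadm encode the long-chain and medium-chain acyl-CoA dehydrogenases that open each round of beta-oxidation, and Hadha encodes the alpha subunit of the trifunctional protein that carries out later steps on long chains. Pdk4 encodes a kinase that inhibits pyruvate dehydrogenase and so limits the use of glucose carbon while fat is burned. In the small intestine these genes are known to respond to fasting and dietary fat.

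Promoter windows of the genes were read from RefSeq on build GRCm38.p6, each running from 250 bases before to 50 bases after the annotated start. All 6 genes matched. They are shown for Ppara, the receptor gene and the member called at 5 months, for Cpt1a, the member called at 7 days, and for Acadm, the member that varied most closely with Cpt1a. Capitals mark AGGTCA or its reverse complement TGACCT, the core element that PPAR and retinoid X receptors recognise.
Ppara, chr15:85735526-85735825, plus strand: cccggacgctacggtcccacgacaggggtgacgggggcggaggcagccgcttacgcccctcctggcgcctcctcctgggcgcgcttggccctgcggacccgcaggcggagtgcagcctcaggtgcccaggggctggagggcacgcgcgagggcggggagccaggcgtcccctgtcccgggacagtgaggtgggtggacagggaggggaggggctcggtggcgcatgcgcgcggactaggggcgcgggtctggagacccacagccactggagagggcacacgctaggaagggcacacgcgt
Cpt1a, chr19:3323051-3323350, plus strand: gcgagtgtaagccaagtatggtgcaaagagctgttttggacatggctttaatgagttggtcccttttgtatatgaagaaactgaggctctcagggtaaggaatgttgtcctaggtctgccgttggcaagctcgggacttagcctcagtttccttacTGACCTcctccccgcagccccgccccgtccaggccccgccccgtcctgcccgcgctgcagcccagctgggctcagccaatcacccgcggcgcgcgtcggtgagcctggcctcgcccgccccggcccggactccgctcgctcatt
Acadm, chr3:153944594-153944893, minus strand: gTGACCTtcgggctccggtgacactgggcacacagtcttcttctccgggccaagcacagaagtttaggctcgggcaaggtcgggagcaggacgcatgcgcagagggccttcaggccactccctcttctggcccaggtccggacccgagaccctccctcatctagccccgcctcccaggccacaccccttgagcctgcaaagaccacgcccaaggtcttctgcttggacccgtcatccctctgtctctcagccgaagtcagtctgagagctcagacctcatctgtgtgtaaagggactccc
The element was in 2 of the 6 windows, beginning 94 bases before the start of Cpt1a and 249 bases before that of Acadm, and 5340 of all 32851 promoter windows held it on either strand (16.3%). The paired form, AGGTCA repeated in the same direction after 1 base of any kind, contains the single element and was in 0 of the 6 windows and in 13 of all windows (0.0396%). These matches describe the letters of these windows, and no binding was measured.

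All 7 epithelial markers looked at were detected in every group, as were markers of crypt base and of absorptive cells. The targeted genes were lower in DKO libraries at both times, with Kdm6a at 42.6 ± 2.73 CPM in acute DKO and 66.1 ± 6.62 CPM in acute control libraries (SD, n = 7 and 5), and Kdm6b at 70.4 CPM and 101 CPM. Esr1 had 32.7 to 41.2 CPM in acute DKO and at most 0.454 CPM in acute control libraries. At 5 months it had 28.3 to 35.1 CPM in DKO and at most 0.403 CPM in control libraries. The source of these reads was not tested. Reads in genes came to 19134272 to 26586045 in acute DKO, 15435118 to 26549494 in acute control, 12560843 to 20612206 in prolonged DKO and 9914738 to 23181576 in prolonged control libraries. On the first principal component acute DKO 3 and 4 lay apart, at 34.0 and 45.9, against -28.0 to 12.1 for the other acute libraries, and a result that they decide is also given without them. Stem, cell cycle and Paneth cell markers did not overlap between genotypes at either time. Summed crypt base stem cell markers were 905 to 1901 CPM in acute DKO and 2076 to 2724 CPM in acute control libraries, and 1680 to 1936 CPM in prolonged DKO and 2315 to 2668 CPM in prolonged control libraries, for 10 of 10 markers detected. Summed Paneth cell markers were 712 to 3792 CPM in acute DKO and 4311 to 8870 CPM in acute control libraries, for 8 of 8 detected, and 1889 to 7083 CPM in prolonged DKO and 7246 to 7939 CPM in prolonged control libraries. Summed cell cycle markers were 783 to 1103 CPM in acute DKO and 1231 to 1683 CPM in acute control libraries, and 1154 to 1391 CPM in prolonged DKO and 1587 to 1920 CPM in prolonged control libraries, for 14 of 14 detected. Summed absorptive enterocyte markers were 40781 to 54796 CPM in acute DKO and 31554 to 46549 CPM in acute control libraries, and 51688 to 55441 CPM in prolonged DKO and 39652 to 53118 CPM in prolonged control libraries, for 16 of 16 detected. Stromal and endothelial markers summed to 34.4 to 700.0 CPM in acute DKO libraries, highest in acute DKO 3, and to 46.1 to 206 CPM in acute control libraries. Adipocyte markers summed to at most 0.452 CPM in any library, with Adipoq, Cfd and Retn not listed in either table and Lep at 0 in acute DKO libraries.

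The first question was which of the 6 genes differed between genotypes at each time. Cpt1a was lower in DKO than in control epithelium at 7 days, and Ppara was higher in DKO than in control epithelium at 5 months. The tests did not call Acadm, Acadl, Hadha or Pdk4 at either time. So 1 of 6 genes was called at each time (limma, Benjamini-Hochberg adjusted p under 0.05 over all genes), against 15.0% of all 13601 genes tested at 7 days, with 2.90% higher and 12.1% lower, and 14.7% of 13316 genes at 5 months, with 5.74% higher and 8.94% lower. A share of 1 in 6 is near these backgrounds. The share of all genes whose genotype groups do not overlap is not given here, so a lack of overlap below only describes the libraries. In bulk RNA, fewer cells of a type and less RNA per cell cannot be told apart, and the part of the marker shifts above in these results was not tested.

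**Figure D1:**
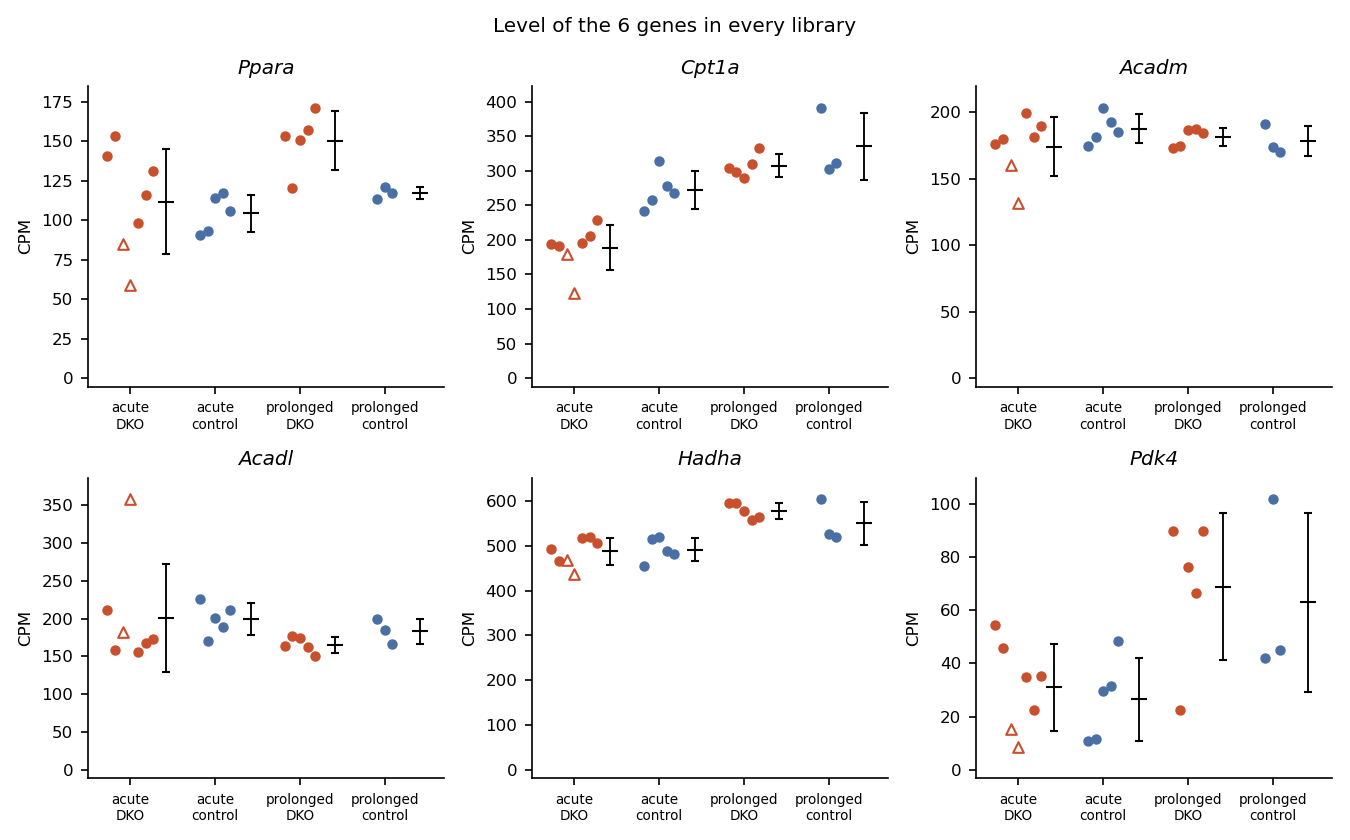
CPM (vertical axes, from 0) of the 6 genes in every library, with DKO libraries in orange and control libraries in blue, acute DKO 3 and 4 as open triangles, and bars giving the mean ± SD of each group. Every acute DKO library lies below every acute control library for Cpt1a, and 4 of 5 prolonged DKO libraries lie above every prolonged control library for Ppara.

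Ppara, the receptor gene, had between 58.8 and 153 CPM in acute DKO libraries, with a median of 116 CPM, against 90.7, 93.1, 114, 117 and 106 CPM in acute control libraries. The DKO libraries spread on both sides of the controls, with acute DKO 3 and 4 the lowest at 84.5 and 58.8 CPM. The mean was 112 ± 33.3 CPM in acute DKO and 104 ± 12.0 CPM in acute control libraries (SD, n = 7 and 5). The log2 fold change, the DKO mean of log2(CPM + 1) less the control mean, was 0.04 ± 0.20 (SE; 95% interval -0.38 to 0.46; limma adjusted p = 0.909), so no difference was detectable against this spread. Without acute DKO 3 and 4 it was 0.28 (adjusted p = 0.133).

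At 5 months Ppara had 153, 120, 151, 157 and 171 CPM in DKO libraries, against 113, 121 and 117 CPM in control libraries. Prolonged DKO 2, at 120 CPM, lay within the control range, and the other 4 lay above it. The mean was 150.3 ± 18.7 CPM in DKO and 117 ± 3.77 CPM in control libraries (SD, n = 5 and 3), and Ppara rose by 0.35 ± 0.09 on the log2 scale (95% interval 0.15 to 0.55; limma adjusted p = 0.0240). In the authors' deposited table the log2 fold change of Ppara was 0.37 with an adjusted p of 0.0051. The call depended on single libraries: the adjusted p was 0.0539 without prolonged DKO 4, 0.0516 without prolonged DKO 5, 0.0714 without prolonged control 1 and 0.0828 without prolonged control 3, with log2 fold changes between 0.30 and 0.35.

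Cpt1a, the gene of the entry step into mitochondria, had between 123 and 229 CPM in acute DKO libraries, with a median of 194 CPM, against 241, 258, 314, 278 and 267 CPM in acute control libraries. All 7 DKO libraries lay below all 5 control libraries. The mean was 188 ± 32.5 CPM in acute DKO and 272 ± 27.2 CPM in acute control libraries (SD, n = 7 and 5), and Cpt1a fell by 0.54 ± 0.12 on the log2 scale (95% interval -0.81 to -0.28; limma adjusted p = 0.00963). It was called in each of the 12 fits that left out a library, with log2 fold changes between -0.59 and -0.44. Without acute DKO 3 and 4 the change was -0.41 (adjusted p = 0.00319). In another fit, neighbouring animal numbers of the labels were blocks. There acute DKO 3 and 4 share no block with a control, and acute control 5 shares none with a DKO library. With these blocks the change was -0.39 and the call was lost (limma adjusted p = 0.0672). In the authors' deposited table the log2 fold change of Cpt1a was -0.44 with an adjusted p of 0.000864.

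At 5 months Cpt1a had 304, 299, 290, 310 and 333 CPM in DKO libraries, against 391, 302 and 312 CPM in control libraries. The groups overlapped, with prolonged control 1 above all others. The log2 fold change was -0.12 ± 0.08 (95% interval -0.29 to 0.06; limma adjusted p = 0.384). Whether the genotype effect itself changed between the times was tested in 1 fit over the 4 groups. The change of the log2 fold change of Cpt1a, prolonged minus acute, was 0.43 ± 0.17 (95% interval 0.06 to 0.79), with an adjusted p of 0.859 by limma. The median of this change over all genes was itself 0.0787 on CPM as deposited, and 0.0019 on CPM scaled for composition with TMM factors. Of all 13088 genes tested at both times, 0 were called for such a change (0% called; 608 at an unadjusted p under 0.05), while edgeR on reads recovered from the CPM called 0 (494 unadjusted) and DESeq2 called 8 (489 unadjusted). For the other 5 genes the change lay between -0.12 for Pdk4 and 0.30 for Ppara, each with an interval that included 0.

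**Figure D2:**
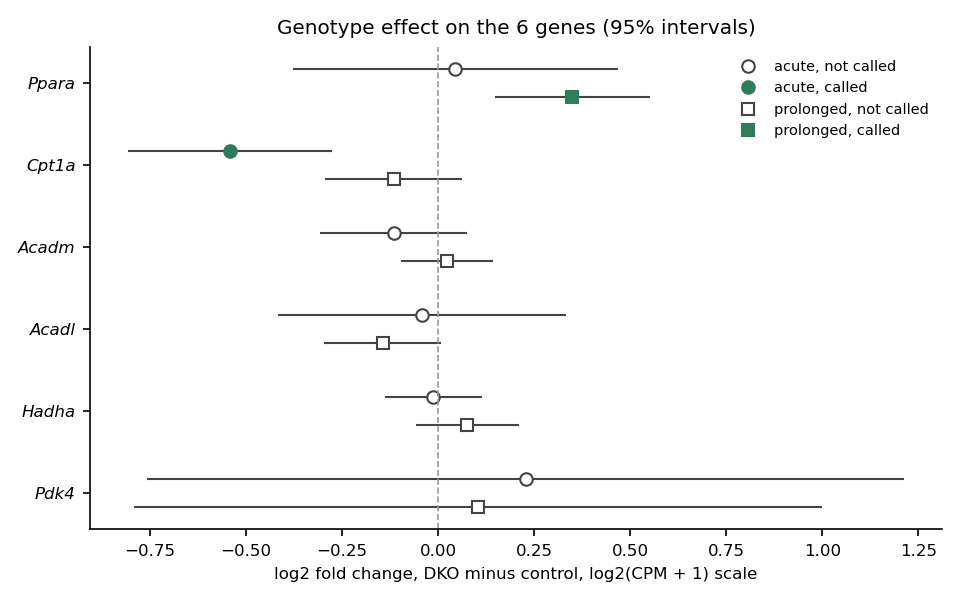
Log2 fold change of each of the 6 genes, DKO less control in log2(CPM + 1) (horizontal axis), with 95% intervals, circles for the acute and squares for the prolonged time, and filled symbols for genes called by limma. The intervals of acute Cpt1a and prolonged Ppara lie clear of 0, and those of Pdk4 are the widest, reaching from -0.76 to 1.21 at the acute time.

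Acadm, the medium-chain dehydrogenase gene, had between 132 and 199 CPM in acute DKO libraries, with a median of 180 CPM, against 174, 182, 203, 193 and 185 CPM in acute control libraries. The groups overlapped, and the lowest values belonged to acute DKO 3 and 4. Its log2 fold change was -0.12 ± 0.09 (limma adjusted p = 0.424), and -0.02 without these libraries. At 5 months Acadm had 173, 174, 186, 187 and 184 CPM in DKO libraries, against 191, 174 and 170 CPM in control libraries, a log2 fold change of 0.02 ± 0.05 (95% interval -0.10 to 0.14; limma adjusted p = 0.830).

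Acadl, the long-chain dehydrogenase gene, had between 156 and 358 CPM in acute DKO libraries, with a median of 173 CPM, against 226, 171, 200, 189 and 212 CPM in acute control libraries. The highest value was that of acute DKO 4, and the other 6 DKO libraries lay between 156 and 211 CPM. The log2 fold change was -0.04 ± 0.17 (limma adjusted p = 0.903), a sign that flipped on CPM scaled for composition (0.05 with TMM factors), and it was -0.19 without acute DKO 4 (adjusted p = 0.166). At 5 months Acadl had 163, 177, 174, 162 and 151 CPM in DKO libraries, against 199, 184 and 166 CPM in control libraries. The groups overlapped, and the log2 fold change was -0.14 ± 0.07 (limma adjusted p = 0.194).

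Hadha, the trifunctional protein gene, had the smallest SD of the 6 genes in 3 of the 4 groups, at 0.0925 log2 units in acute DKO, 0.0766 in acute control and 0.0450 in prolonged DKO libraries. It had between 437 and 520 CPM in acute DKO libraries, with a median of 494 CPM, against 455, 514, 519, 488 and 481 CPM in acute control libraries. At 5 months it had 597, 596, 577, 557 and 564 CPM in DKO libraries, against 604, 526 and 519 CPM in control libraries. The groups overlapped at both times. The log2 fold change was -0.01 ± 0.06 at 7 days (95% interval -0.14 to 0.11; limma adjusted p = 0.914), a sign that flipped with scaling (0.08 with TMM factors), and 0.08 ± 0.06 at 5 months (95% interval -0.06 to 0.21; limma adjusted p = 0.461). An exon of Garem2 overlaps Hadha on the opposite strand, in an annotation of another build than that of the counts. No source used here states the strand setting of the counting, so how reads from the shared stretch were counted is unknown. The size of that stretch was not looked at.

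Pdk4, the pyruvate dehydrogenase kinase gene, differed more between libraries of a group than between genotypes. It had between 8.53 and 54.4 CPM in acute DKO libraries, with a median of 35.0 CPM, against 10.8, 11.5, 29.8, 31.6 and 48.6 CPM in acute control libraries. At 5 months it had 89.9, 22.4, 76.3, 66.7 and 89.8 CPM in DKO libraries, against 42.0, 102 and 45.1 CPM in control libraries. Low and high libraries occurred in every group, and the lowest value rested on 183 reads in acute DKO 4. The SD of Pdk4 within groups was 0.90 log2 units in acute DKO, 0.92 in acute control, 0.82 in prolonged DKO and 0.70 in prolonged control libraries, larger than that of 98.6% to 99.9% of genes. The log2 fold change was 0.23 ± 0.46 at 7 days (95% interval -0.76 to 1.21; limma adjusted p = 0.793) and 0.10 ± 0.41 at 5 months (95% interval -0.79 to 0.996; limma adjusted p = 0.902). These wide intervals do not show that the genotypes were alike.

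Across the 4 groups, mean Cpt1a was lowest in acute DKO libraries at 188 CPM, then 272 CPM in acute control, 307 CPM in prolonged DKO and 335 CPM in prolonged control libraries. Of neighbours in that order, acute DKO and acute control ranges did not overlap and the others did. Mean Pdk4 was 31.0 and 26.4 CPM in acute DKO and control libraries, and 69.0 and 63.0 CPM in prolonged DKO and control libraries, and its group ranges overlapped throughout. Mean Ppara was 112 CPM in acute DKO, 104 CPM in acute control, 150.3 CPM in prolonged DKO and 117 CPM in prolonged control libraries, and each of these ranges overlapped the next in order of level. Group means of Acadm, Acadl and Hadha were 174, 201 and 487 CPM in acute DKO, 187, 199.6 and 491 CPM in acute control, 181, 166 and 578 CPM in prolonged DKO and 178, 183 and 549.8 CPM in prolonged control libraries. The times come from separate tables, so differences between times in these levels were not tested.

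The libraries also differed within groups, and the members were compared as deviations from their group means in log2(CPM + 1) over all 20 libraries, as a description with no test. Ppara and Pdk4 deviated together (r = 0.80), also over the 18 libraries without acute DKO 3 and 4 (r = 0.71). Cpt1a deviated with Acadm (r = 0.90, and 0.71 over 18 libraries) and with Hadha (r = 0.75, and 0.63 over 18). Acadl ran opposite to Ppara over all libraries (r = -0.66), but at -0.02 over the 18 libraries. Acute DKO 4 deviated by -0.85 in Ppara and by 0.89 in Acadl, while acute DKO 3 was below its group mean in both, at -0.34 and -0.08. These points share the depth of each library and the composition of its cells.

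**Figure D3:**
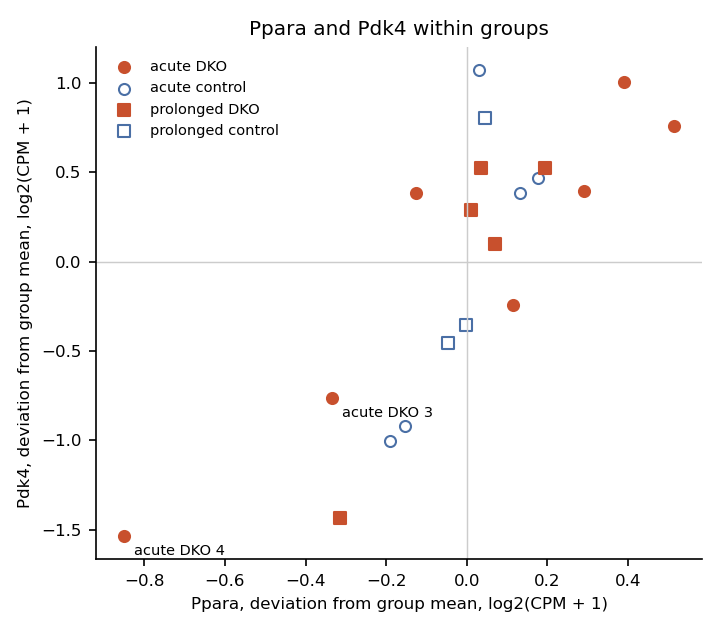
Deviation of Ppara (horizontal) and Pdk4 (vertical) from their group means in log2(CPM + 1), 1 point per library, with circles for acute, squares for prolonged, filled orange for DKO and open blue for control libraries. Acute DKO 4 was the lowest in both, and acute DKO 5 and 6 deviated in opposite directions in the pair (r = 0.80 over 20 libraries).

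The 3 genes whose deviations were most like those of each member were also found. For Ppara they were Marcksl1-ps4 (r = 0.92), the thiamine transporter gene Slc19a2 (r = 0.91) and Ndrg1 (r = 0.89). For Cpt1a they were the urea cycle gene Otc (r = 0.90), Acadm and the thioesterase gene Acot2 (r = 0.87), and for Pdk4 the prostaglandin dehydrogenase gene Hpgd (r = 0.90), Zfp108 (r = 0.86) and Fam134b (r = 0.85). For Acadm they were Tox, Dnajc28 and Otc (r = 0.94, 0.93 and 0.93), and for Acadl Chst4, Il18bp and Pdgfc (r = 0.91 each). For Hadha they were Elp3, the peroxisomal enzyme gene Ech1 and the very-long-chain dehydrogenase gene Acadvl (r = 0.86 each). Without acute DKO 3 and 4, r over 18 libraries was 0.89 for Pdk4 and Hpgd, 0.83 for Ppara and Slc19a2, and 0.60 for Ppara and Ndrg1. It was 0.67, 0.70 and 0.77 for Acadl with Chst4, Il18bp and Pdgfc. Otc had 0.72 with both Cpt1a and Acadm, while Tox and Dnajc28 had 0.81 and 0.905 with Acadm. These genes were picked as the highest among 13088, so high values follow in part from the choice.

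The second question was how the pathway around these genes behaved, from 7 lists of receptors, targets and enzymes holding 109 distinct gene symbols, the 6 members included, some on more than 1 list. Among them Dci and Peci, older symbols of the listed Eci1 and Eci2, were not found in the data. At 7 days 3 of 100 tested list genes rose and 16 fell (19.0% called, against 15.0% of all genes), with a median log2 fold change of -0.07, against -0.07 for all genes. At 5 months 7 of 99 rose and 15 fell (22.2%, against 14.7%), with a median of -0.01, against 0.0015 for all genes. The acute direction depends on scaling: TMM-scaled CPM gave 8 higher and 8 lower list genes, and moved the share of higher calls among all called genes to 37.0%, against 19.4% on CPM as deposited. With animal-number blocks 6 rose and 4 fell. The 16 lower acute calls numbered 10 without acute DKO 1, 8 without control 2, 7 without control 3 and 9 without control 4, and the 3 higher ones numbered 1 without control 3 and 5 without control 5. At 5 months the 7 higher calls numbered 3 without prolonged DKO 5 and 0 without control 3, and the 15 lower ones numbered 9 without prolonged DKO 4 or without control 2. Of the list genes, 11 were called at both times and all 11 were lower at both: Ppargc1b, Lpin1, Plin2, Cyp4a10, Acaa1b, Aqp7, Amacr, Bdh1, Slc16a1, Pdk3 and Pdp2. They made up 57.9% of the acute and 50.0% of the prolonged list calls, against 52.2% and 54.3% for all genes called at both times. Of all 1049 genes called at both times, 826 were lower at both (78.7%). Of the 99 list genes tested at both times, 0 were called for a change of the genotype effect between times. A call at 1 time only therefore does not show that the times differed. Of the 11 list genes, Lpin1, Cyp4a10, Aqp7 and Slc16a1 were called at both times under all 4 scaling and count-based alternatives.

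**Figure D4:**
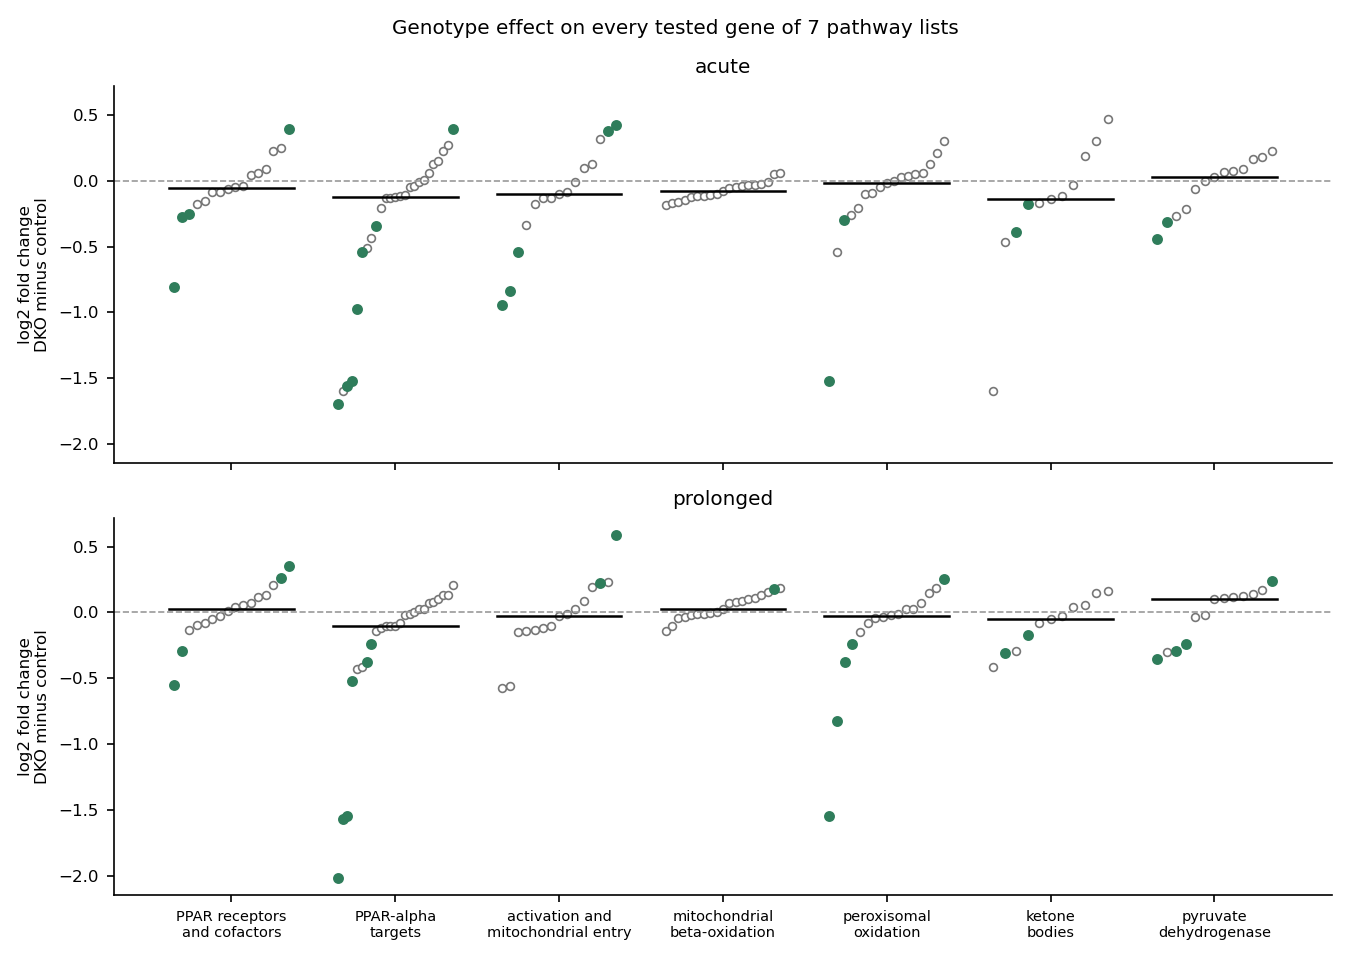
Log2 fold change of every tested gene of the 7 lists (vertical axes, DKO less control in log2(CPM + 1)), 1 point per gene, filled where called by limma, with a line at each list's median. The mitochondrial beta-oxidation genes lie between -0.19 and 0.06 at the acute time, while PPAR-alpha targets reach -1.69. The medians of these lists were -0.07 and -0.13, against -0.07 for all genes.

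Among 16 receptor and cofactor genes, 1 rose and 3 fell at 7 days, and 2 rose, Ppara among them, and 2 fell at 5 months. The called share was 25.0% at each time, against 15.0% and 14.7% of all genes. Lpin1, a phosphatidate phosphatase that also acts as a coactivator of PPAR-alpha, had a median of 8.24 CPM in acute DKO libraries (5.49 to 8.87), against 11.8 to 18.1 CPM in acute control libraries. At 5 months it had 4.70, 7.60, 7.77, 6.16 and 6.98 CPM in DKO libraries, against 10.9, 8.94 and 10.4 CPM in control libraries, so the groups did not overlap at either time. Lpin1 fell by 0.81 ± 0.14 (limma adjusted p = 0.00216) and by 0.55 ± 0.15 (adjusted p = 0.0260), and the second call was lost without prolonged DKO 4 (0.0557), control 1 (0.0851) or control 3 (0.0986). Creb3l3, a transcription factor that cooperates with PPAR-alpha in liver, rose by 0.39 ± 0.10 at 7 days (adjusted p = 0.0178; 0.0527 without acute control 3). Rxra, the partner receptor, fell by 0.25 ± 0.07 at 7 days (adjusted p = 0.0246), a call lost without acute control 1 (0.0501), 2 (0.0602), 3 (0.0530) or 4 (0.0599) and lost on TMM-scaled CPM (0.0956) or with animal-number blocks (0.130). The coactivator gene Ppargc1b fell by 0.27 and 0.29 at the 2 times (adjusted p = 0.0448 and 0.00967), the first kept without acute DKO 4, DKO 6 or control 2 but lost without any other library (0.0530 to 0.124) and on TMM-scaled CPM (0.213). Ppargc1a, the related coactivator gene, rose by 0.26 ± 0.06 at 5 months (adjusted p = 0.0183; 0.0738 without prolonged control 3). At 7 days the change of Ppargc1a was 0.25 ± 0.13 and not called (limma adjusted p = 0.215).

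Among 25 tested PPAR-alpha target genes, 1 rose and 6 fell at 7 days, and 0 rose and 6 fell at 5 months, with medians of -0.13 and -0.10. Over all genes 12.1% and 8.94% were lower. The acute count of lower targets was 3 without acute DKO 1, control 2, control 3 or control 4, 3 with edgeR and 1 with animal-number blocks, and that of higher targets was 0 without control 3. Cyp4a10, a fatty acid omega-hydroxylase gene, had between 0 and 1.33 CPM in acute DKO libraries, with a median of 0.339 CPM, against 0.731, 5.12, 5.57, 3.86 and 2.02 CPM in acute control libraries. The prolonged values of Cyp4a10 were 1.27, 1.11, 0.550, 1.21 and 0.842 CPM in DKO libraries, against 4.79, 4.53 and 5.35 CPM in control libraries. It fell by 1.56 ± 0.31 (limma adjusted p = 0.00524) and by 1.57 ± 0.15 (adjusted p = 4.98e-05), on at most 29 reads per acute DKO library. A near-identical gene, Cyp4a32, is in the tables, so how reads were divided between them is uncertain. Aqp7, a glycerol channel gene, had between 2.37 and 13.4 CPM in acute DKO libraries, with a median of 5.27 CPM, against 11.1, 38.0, 17.0, 19.3 and 21.9 CPM in acute control libraries. It had 3.90, 2.23, 3.51, 3.64 and 4.39 CPM in prolonged DKO libraries, against 10.4, 30.5 and 15.4 CPM in prolonged control libraries. Aqp7 fell by 1.69 ± 0.36 at 7 days and fell by 2.02 ± 0.27 at 5 months (adjusted p = 0.00695 and 0.000513), and the acute call missed the threshold with animal-number blocks (0.0528).

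Acaa1b, a peroxisomal thiolase gene with a near-identical copy Acaa1a, fell by 1.52 ± 0.46 at 7 days (adjusted p = 0.0389) and by 1.55 ± 0.26 at 5 months (adjusted p = 0.00247). It had 8.11 ± 3.21 CPM in prolonged DKO and 24.6 ± 5.29 CPM in prolonged control libraries (SD, n = 5 and 3), with no overlap. Its acute call was kept without acute DKO 2, 4, 5 or 6 or control 1 and lost without any other library (0.0552 to 0.105), and without acute DKO 3 and 4 the change was -1.01 (0.0524). The acute call was also lost with edgeR (0.0565) or animal-number blocks (0.177). Ehhadh, the peroxisomal bifunctional enzyme gene, fell by 0.38 ± 0.06 at 5 months (adjusted p = 0.00188), when all 5 DKO libraries lay below the controls. At 7 days Cpt1a, Plin2 and Acot1 were also called lower, and at 5 months Plin2 and Vnn1. The change of Vnn1 was -0.51 at 7 days, not called (limma adjusted p = 0.137), and -0.52 at 5 months. That of Acot1 at 5 months was -0.43, not called (limma adjusted p = 0.0607). The acute call of Plin2, a lipid droplet coat gene, held under none of the 4 scaling and count-based alternatives (0.0799 to 0.0979), nor with animal-number blocks (0.125). It was lost without acute DKO 1, 4 or 6 or control 2, 3 or 4 (0.0550 to 0.106), and its prolonged call was kept without prolonged DKO 1 or control 3 and lost without any other library (at most 0.108). Acot1, a thioesterase gene with a near-identical copy Acot2, kept its acute call without acute DKO 7 or control 1 and lost it without any other library (0.0513 to 0.117), without acute DKO 3 and 4 together (0.0911), on TMM-scaled CPM (0.0590), with edgeR (0.0778) and with animal-number blocks (0.197).

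**Figure D5:**
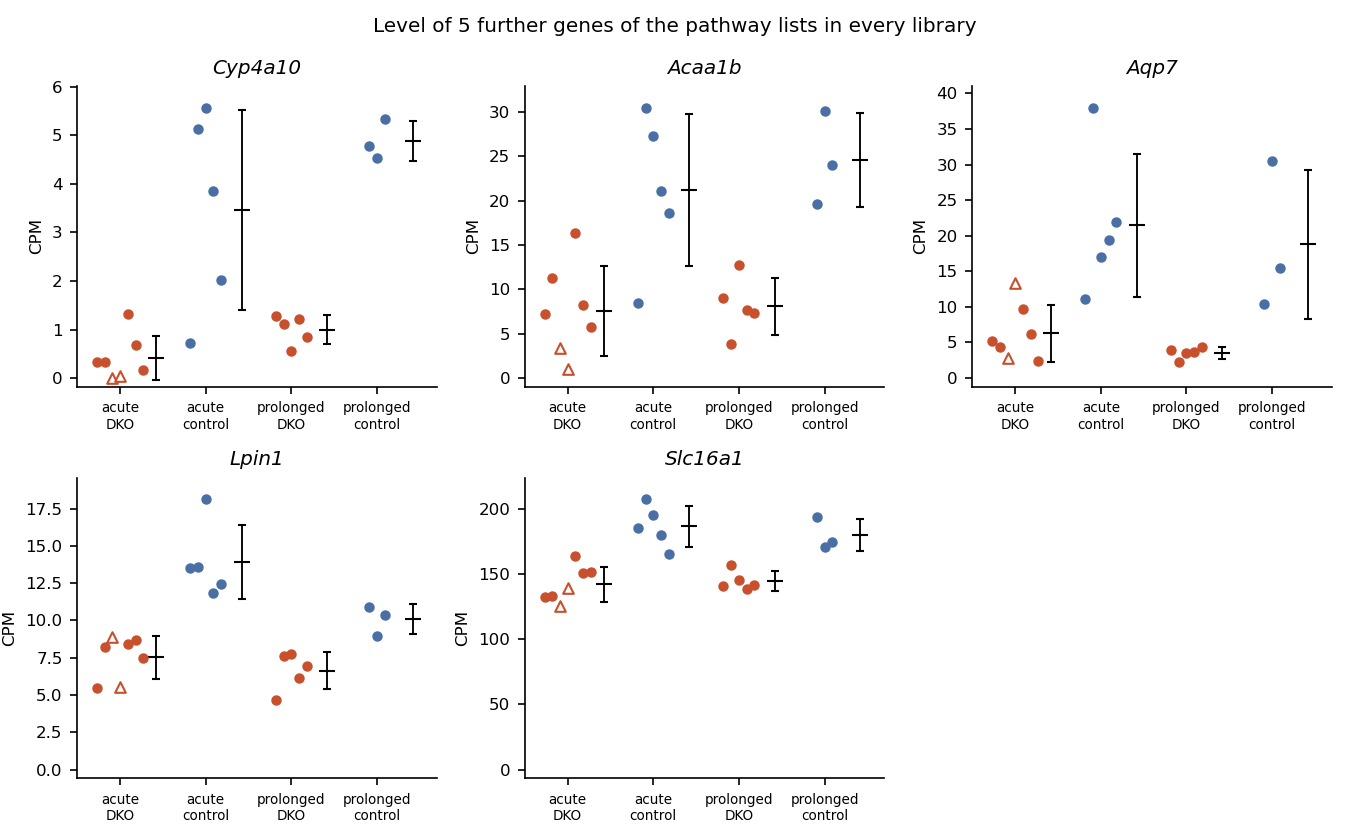
CPM (vertical axes, from 0) in every library of 5 list genes called at both times, with DKO in orange, control in blue, acute DKO 3 and 4 as open triangles and bars for the mean ± SD. At the prolonged time every DKO library lies below every control library for Cyp4a10, Acaa1b, Aqp7, Lpin1 and Slc16a1. These genes were chosen among those called lower at both times, so this separation follows in part from the choice. Some list genes that were not called separate at that time too, such as Rxra (DKO lower) and Hsd17b4 (DKO higher).

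Among 15 genes of fatty acid activation and mitochondrial entry, 2 rose and 3 fell at 7 days, and 2 rose and 0 fell at 5 months. The called share was 33.3% at 7 days, against 15.0% of all genes, and 13.3% at 5 months, against 14.7%. Acsl5, an acyl-CoA synthetase gene of enterocytes, had 1913 ± 154 CPM in acute DKO and 1431 ± 165 CPM in acute control libraries (SD, n = 7 and 5) and rose by 0.42 ± 0.09 (limma adjusted p = 0.00589), with every DKO library above every control. Acsl6, another synthetase gene, fell by 0.83 ± 0.18 (adjusted p = 0.00677; 0.0546 with animal-number blocks). Its level was low, at 0.186 to 1.83 CPM (4 to 40 reads) in acute DKO and 1.63 to 2.59 CPM in acute control libraries, and the groups overlapped. The ratio of mean CPM was 0.367, and a fold change in log2(CPM + 1) understates it at such levels. Acacb, whose product makes the malonyl-CoA that inhibits the enzyme encoded by Cpt1a, fell by 0.94 ± 0.23 at 7 days (adjusted p = 0.0142; 0.142 with animal-number blocks). At 5 months the change of Acacb was -0.58 ± 0.20 and not called by limma (adjusted p = 0.0716; 0.065 on TMM-scaled CPM). There edgeR (0.0379) and DESeq2 (0.0072) on recovered reads called it lower. Slc27a4, a fatty acid transport gene, was called higher at 7 days, kept without acute DKO 2, 4 or 7 or control 2 or 5 and lost without any other library (0.0552 to 0.0990) or without acute DKO 3 and 4 together (0.0684). At 5 months Acsl4 rose by 0.59 ± 0.14 (adjusted p = 0.0129; 0.0648 without prolonged control 3). Acsl3 rose by 0.22 ± 0.07 (adjusted p = 0.0475), kept without prolonged DKO 2 or control 1 and lost without any other library (0.0712 to 0.176).

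Of 19 mitochondrial beta-oxidation genes, 0 were called by limma at 7 days, with log2 fold changes from -0.19 for Acad9 to 0.06 for Etfb. DESeq2 on recovered reads called 1 higher. By limma 0% of this list was called at 7 days and 5.26% at 5 months, against 15.0% and 14.7% of all genes, and the difference was not tested. At 5 months 1 rose and 0 fell: Acadvl, which encodes the very-long-chain dehydrogenase, had 317 ± 7.67 CPM in DKO and 280 ± 19.5 CPM in control libraries (SD, n = 5 and 3), a rise of 0.18 ± 0.05 (adjusted p = 0.0403). That call was kept without prolonged control 1 and lost without any other library (0.0525 to 0.191).

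Of the peroxisomal genes, 0 of 17 rose and 2 fell at 7 days, and 1 of 16 rose and 4 fell at 5 months. The called share was 11.8% at 7 days, against 15.0% of all genes, and 31.2% at 5 months, against 14.7%. Leaving out 1 library at a time gave 0 to 2 higher and 2 to 4 lower genes at 5 months. Amacr, a racemase gene for branched-chain fatty acids, fell by 0.29 and 0.24 (adjusted p = 0.0298 and 0.0489). The first call was lost without acute DKO 3 (0.0600) or control 1 (0.0519), 2 (0.0701), 3 (0.0796) or 5 (0.0541), and the second was kept without prolonged DKO 3 and lost without any other library (0.0617 to 0.135). Without acute DKO 3 and 4 the first was not called either (0.0856), and on TMM-scaled CPM neither was (0.108 and 0.0558). Acox2, a peroxisomal oxidase gene, fell by 0.83 ± 0.20 at 5 months (adjusted p = 0.0189; 0.0768 without prolonged control 2 and 0.0625 without control 3). At 7 days the change of Acox2 was -0.54 ± 0.19 and not called (limma adjusted p = 0.0744). Acot8, a peroxisomal thioesterase gene, rose by 0.26 ± 0.07 at 5 months (adjusted p = 0.0237; 0.0725 without prolonged control 2 and 0.115 without control 3).

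Of 11 ketone body genes, 0 rose and 2 fell at each time. The called share of 18.2% was near the 15.0% and 14.7% of all genes. Slc16a1, a transporter of lactate and ketone bodies, had between 126 and 164 CPM in acute DKO libraries, with a median of 139.5 CPM, against 185, 208, 195, 180.0 and 166 CPM in acute control libraries. Prolonged values were 141, 157, 146, 139 and 142 CPM in DKO libraries, against 194, 171 and 175 CPM in control libraries. The groups did not overlap at either time, and Slc16a1 fell by 0.39 ± 0.07 (limma adjusted p = 0.00331) and by 0.31 ± 0.06 (adjusted p = 0.00454). Bdh1, which interconverts the ketone bodies, fell by 0.18 and 0.17 (adjusted p = 0.0455 and 0.0480). Its acute call was kept without acute DKO 6 or 7 or control 5 and lost without any other library (0.0529 to 0.132), its prolonged call was kept without prolonged control 1 and lost without any other library (0.0564 to 0.245), and neither held on TMM-scaled CPM (0.320 and 0.0803). Without acute DKO 3 and 4 the acute adjusted p of Bdh1 was 0.103.

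Of 13 genes of pyruvate dehydrogenase, its kinases and phosphatases and the pyruvate carrier, 0 rose and 2 fell at 7 days, and 1 rose and 3 fell at 5 months. The called share was 15.4% at 7 days, against 15.0% of all genes, and 30.8% at 5 months, against 14.7%. That prolonged share was not stable: leaving out 1 library at a time gave 0 to 2 higher and 0 to 2 lower genes. The kinase gene Pdk3 fell by 0.31 and 0.29 (adjusted p = 0.0303 and 0.0433). Its acute call was lost without acute DKO 1 (0.0616), DKO 2 (0.0551) or control 1 (0.0845), 2 (0.0644) or 3 (0.0958), and its prolonged call was kept without prolonged DKO 1 and lost without any other library (0.0724 to 0.134), and on TMM-scaled CPM neither was called (0.0914 and 0.0556). The phosphatase gene Pdp2 fell by 0.44 and 0.35 (adjusted p = 0.0392 and 0.0110), the first kept without acute DKO 5 or 6 or control 5 and lost without any other library (0.0534 to 0.101) and on TMM-scaled CPM (0.0552), the second lost without prolonged control 3 (0.0694). Without acute DKO 3 and 4 the acute change of Pdp2 was -0.30 (0.0883). At 5 months Pdk1 rose by 0.24 ± 0.06 (adjusted p = 0.0251), lost without prolonged DKO 5 (0.0614), control 2 (0.0803) or control 3 (0.0625). Pdk2 fell by 0.24 ± 0.06 (adjusted p = 0.0283), lost without prolonged DKO 1 (0.0598), DKO 4 (0.0651), control 2 (0.0993) or control 3 (0.0726), and on TMM-scaled CPM (0.0528). At 7 days the change of Pdk2 was -0.22 ± 0.13 and not called (limma adjusted p = 0.295). On TMM-scaled CPM the acute list counts were 3 higher and 0 lower.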

How the data were processed

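The authors deposited 1 table per time, with CPM per library (each library's columns sum to an equal total), and with a mean signal, log2 fold change, test score and p-value of their own comparison, per the file headers. The submitters' processing notes name build mm9, the aligner STAR, featureCounts 1.6.2, DESeq2, bedtools 2.27.1, SAMtools 1.9 and FastQC 0.11.5, with no order given. RefSeq promoter windows are on GRCm38.p6.

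CPM are not counts, so limma 3.58.1 (R 4.3.3) with a mean-variance trend was fitted to log2(CPM + 1) at each time alone, on genes reaching 0.5 CPM in at least 5 acute or 3 prolonged libraries. Such fold changes understate those of low genes. Calls are at a Benjamini-Hochberg adjusted p under 0.05 over all genes tested. The change between times was a contrast in 1 fit over 4 groups. CPM were whole multiples of a step in every library, with weaker evidence for prolonged control 3, so reads were recovered for edgeR 4.0.16 and DESeq2 1.42.0 as alternatives. Other alternatives were pseudocounts of 0.5 and 5, no filter, TMM and relative log expression factors, replicate and animal-number blocks, and left-out libraries. The procedure was tested on simulated data.

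All members are named. From each list, every gene called is named, the 4 with the smallest adjusted p per list and time with values. The members and lists were chosen with earlier results of these data known. The labels call the libraries biological replicates. Of the tables' names, 24 acute ones had become dates. A result on 1 list gene is not reported here.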

Additional observations from a re-analysis of the deposited data

Results flagged for a closer look

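Among 67 groups of libraries looked at, 8 held a library far from the others by Dixon's criterion, and chance flags about 1 group in 20. Acadl was 358 CPM in acute DKO 4, the highest of the 7. Rxra was 147 CPM in acute DKO 4, the lowest of its group, and Acsl6 was 1.83 CPM in acute DKO 5, the highest. Among acute control libraries, Lpin1 was 18.1 CPM in control 3, Ppargc1b was 64.3 CPM in control 4 and Acacb was 8.09 CPM in control 1. Among prolonged DKO libraries, Acot8 was 58.4 CPM in DKO 3 and Bdh1 was 214 CPM in DKO 2. The part of these libraries in the results is given by the fits that leave each out, and its cause was not tested.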

How the results depend on the processing

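Log2 fold changes that turned sign were of genes that were not called, and the causes were not tested. At 7 days Acadl was 0.0466 with TMM and 0.0574 with relative log expression factors, 0.12 with edgeR, 0.13 with DESeq2 and 0.0294 with a replicate block, and Hadha was 0.0763, 0.0872, 0.0769 and 0.0880 under the first 4, 0.0289 without acute DKO 3 and 4 and 0.0661 with animal-number blocks. With animal-number blocks Acadm was 0.0183 and Cpt1a was -0.39 and no longer called, so 0 members were called. The change between times was 0.06 for Acadl without acute DKO 3 and 4, and for Hadha -0.0053 with relative log expression factors and -0.008 with DESeq2. With the replicate block Ppara was -0.0367 at 7 days and 0.26 at 5 months, where it was no longer called (adjusted p = 0.208), so 0 members were called there, and Pdk4 was -0.10 and Acadm -0.0022 at 5 months. Deviations of same-numbered libraries correlated at -0.20 to 0.20 over 5 acute and -0.24 to -0.16 over 3 prolonged pairs. Acute pairs of unlike numbers ran from -0.47 to 0.53, so these correlations cannot tell whether the libraries were paired. With animal-number blocks the acute calls of Amacr (adjusted p = 0.203), Pdk3 (0.101), Pdp2 (0.159) and Bdh1 (0.139) were also lost.

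Pathway list genes called higher at 7 days numbered 8 (TMM), 9 (relative log expression), 7 (edgeR), 11 (DESeq2), 1 (replicate block) and 6 (animal-number blocks), and lower 8, 8, 7, 10, 6 and 4. At 5 months the replicate block gave 0 higher and 4 lower. Leaving out 1 library at a time gave log2 fold changes at 7 days of -0.0416 to 0.19 for Ppara, -0.0235 to 0.50 for Pdk4, -0.19 to 0.0082 for Acadl and -0.0397 to 0.0133 for Hadha. At 5 months it gave 0.30 to 0.43 for Ppara, -0.19 to 0.0001 for Cpt1a, -0.12 to 0.51 for Pdk4 and -0.0108 to 0.0733 for Acadm. The change between times ranged from -0.39 to 0.28 for Pdk4 and -0.17 to 0.0463 for Acadl. Called members at 5 months ranged from 0 to 1, list genes called higher at 7 days from 1 to 5 and lower from 7 to 15, and at 5 months higher from 0 to 9 and lower from 9 to 13.

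The test between times as a difference of separate fits called 20 genes, against 0 in the single fit. Depth limits Cyp4a10 and Acsl6, with at most 29 and 40 reads in acute DKO libraries.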
